A study of Mus musculus with 24 samples.

Results

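Enrichment of RNA with GFP-Mkrn3 beyond the GFP control was measured in 12 RNA immunoprecipitation (RIP) libraries of GT1-7 cells, out of 24 libraries in the series. All genes entered, apart from a filter on low counts, which 13052 of 57010 gene rows passed. Cells of this immortalised mouse hypothalamic line received 6 µg of plasmid for 24 h, and RNA bound to GFP-trap beads was sequenced beside an input of 5% of the lysate. The groups were GFP-Mkrn3 IP, GFP-Mkrn3 input, GFP IP and GFP input, with 3 libraries each. All 4 groups carried a transiently transfected plasmid, and both plasmids made GFP. The promoter that drives the plasmids is not named in the labels. The GFP group therefore measures what the beads, GFP and the transfection bring down without Mkrn3. The measure is a difference of differences: the log2 change from input to IP with GFP-Mkrn3, minus the same change with GFP. It is called enrichment beyond GFP.

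Mkrn3 is a makorin, a family of proteins with zinc fingers of the type that contact RNA and a RING domain that attaches ubiquitin to other proteins. Loss of human MKRN3 is a known cause of early puberty, and the gene acts upstream of gonadotropin-releasing hormone (GnRH), which GT1-7 cells make. A RIP compares the make-up of a pull-down with that of the lysate, so an RNA can stand higher beyond GFP in more than one way. It can exceed its own input. It can also stay below its own input while standing further below it in the GFP pull-down, and then it is only less depleted than with GFP.

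The libraries held 6254703 to 14575652 counts over 15566 to 20599 detected genes. Levels are CPM, that is, counts relative to library size on the scale of edgeR's TMM normalization, changes are log2 fold changes with their standard error (SE), and adjusted p-values are those of edgeR's quasi-likelihood test after Benjamini-Hochberg correction. No label states that the 3 libraries of a group are separate cultures; a p-value here therefore reflects how far libraries differed, and that may be technical. Between the inputs, 1 gene was called higher with GFP-Mkrn3 than with GFP, Mkrn3 itself (0.00766% of tested genes), and 1 lower, Gm25395 (0.00766%). Of 12 neuron markers, 7 were tested, and Snap25, Elavl4, Nefm and Nefl held 0 counts in all inputs, while Gnrh1 averaged 317 and Eno2 98.7 CPM. Of the fibroblast markers, Col1a2 averaged 155 and Pdgfra 115 CPM in the inputs, while Col3a1 and Lum held 0 counts there. Of the endothelial markers, Kdr averaged 210 CPM, the next highest, Tek, 0.61 CPM, and Cldn5 held 0 counts. Each of these lists was thus present only in part, and the identity of the culture was not tested. Summed fibroblast markers ran from 383 to 420 CPM in GFP-Mkrn3 IP, 294 to 313 in its input, 464 to 519 in GFP IP and 274 to 326 in its input; their part in the results was not tested.

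Mkrn3 RNA, on chromosome 7 (62417593 to 62420153, GRCm38), checked the labels. It stood at 9832, 9067 and 9726 CPM in GFP-Mkrn3 IP and 3602, 3728 and 3733 CPM in its own input, against 7.32, 7.36 and 5.60 CPM in GFP IP and 8.61, 6.01 and 3.97 CPM in GFP input. Every library with the GFP-Mkrn3 plasmid lay above every library with GFP, and the 3 GFP-Mkrn3 IPs above their inputs. The change beyond GFP was 1.20 (SE 0.23, adjusted p = 0.00116) and the change over its own input 1.37 (SE 0.11, adjusted p = 8.94e-08). Transcripts of the plasmid and of the chromosome cannot be told apart in these counts.

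Enrichment beyond GFP was higher for 1724 genes (13.2% of those tested) and lower for 1454 (11.1%). With library size alone as scaling the split was 2845 higher and 603 lower, and the median over all genes moved to 0.233 from 0.0386. The GFP pull-down departed from its input at more genes than the GFP-Mkrn3 pull-down did. In GFP IP 3274 genes were above input (25.1%) and 3291 below (25.2%), while in GFP-Mkrn3 IP 1812 were above (13.9%) and 1675 below (12.8%). Both sets of calls come from 1 fit, and the difference between these counts was not tested.

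Most of the 1724 higher genes were not called above their own input. Of them, 235 (1.80% of the tested genes) were also called above it, 1154 (8.84%) were not called either way, and 335 (2.57%) were called below it and so were only less depleted than with GFP. All 335 of the last class were lower in GFP IP than in GFP input, with median changes of −0.57 in GFP-Mkrn3 IP against its own input and −1.43 in GFP IP against GFP input. The class rule fixes the sign with GFP, which is the change over own input minus the change beyond GFP. Among the 1154, 1086 were lower in GFP IP, with medians of 0.07 with GFP-Mkrn3 and −0.95 with GFP. Among the 235 above their own input, 72 were lower in GFP IP, 162 were not called there and 1, the lysosomal ion channel gene Tpcn2, was higher. Their medians were 0.67 with GFP-Mkrn3 and −0.30 with GFP. Genes lower beyond GFP split likewise: 252 (1.93%) were below their own input, 1023 (7.84%) were not called and 179 (1.37%) were above it. All 179 were also above input with GFP, a sign that the class rule again fixes.

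**Figure D1:**
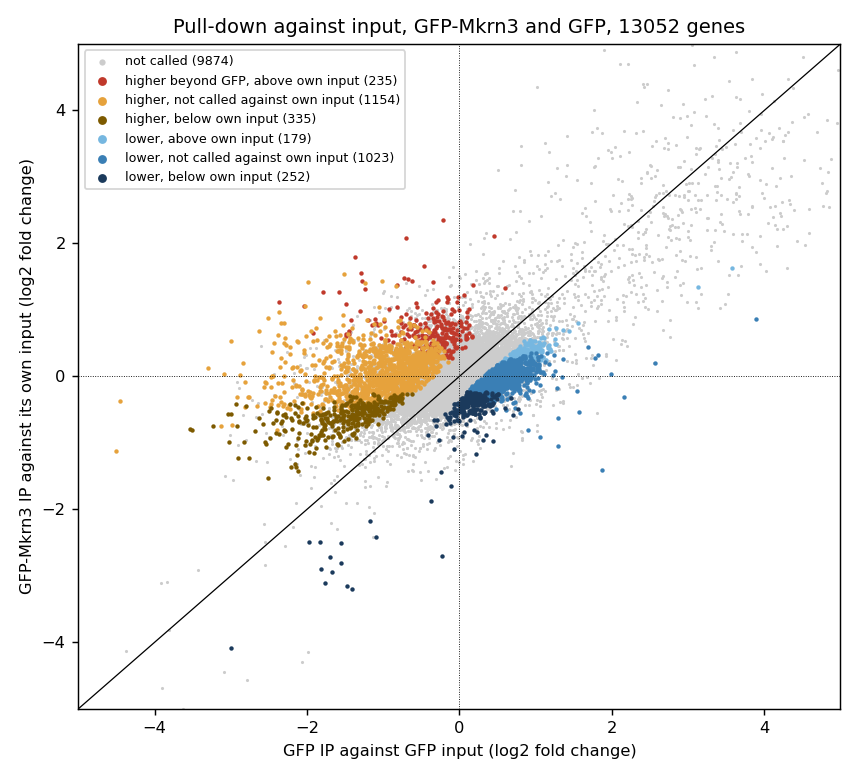
Log2 change from input to IP for the 13052 tested genes, with GFP-Mkrn3 on the y axis and with GFP on the x axis; 69 genes lie outside the plotted range, and the diagonal marks equal change. Genes called higher beyond GFP (red, orange and brown) lie above the diagonal, and most of them spread along the left side near or below 0 on the y axis; only the 235 red genes are called above their own input.

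The class above its own input rested unevenly on the libraries. Its median over own input was 0.65 in GFP-Mkrn3 IP library 1, 1.00 in library 2 and 0.23 in library 3. Library 2 was the highest of the 3 for 221 of the 235 genes, and library 3 the lowest for 219. For 148 genes all 3 GFP-Mkrn3 IPs exceeded all 3 own inputs. The count fell to 64 without IP library 2 (62 of them among the 235) and came to 788 without IP library 3. It was 113 without IP library 1, 100 without GFP-Mkrn3 input 1, 89 without its input 2, 149 and 145 without GFP IP 2 and 3, and 155 without GFP input 2. In all 12 such fits 40 of the 235 genes stayed in the class. Of the genes named here as members of it, Mkrn3, Osgin1, Hmox1, Myc, Junb, Chac1, Gtse1, Rpl36 and Mt2 were among the 40, and each of the others left the class in at least 1 fit. Tested against a 1.5-fold change instead of no change, 1 gene passed both tests, Osgin1. A replicate block within plasmid, which treats same-numbered libraries as pairs, gave 146 genes in the class.

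The class only less depleted than with GFP was steadier. Its median over own input was −0.57 in IP libraries 1 and 2 and −0.59 in library 3 with GFP-Mkrn3, against −1.48, −1.40 and −1.39 in the GFP IPs. Leaving out 1 library at a time gave 218 to 383 genes, the lowest without GFP-Mkrn3 IP 1, and 186 of the 335 stayed in the class in all 12 fits. For the class not called against its own input the medians were 0.06, 0.28 and −0.19 with GFP-Mkrn3 and −0.94, −0.84 and −0.90 with GFP. Here too library 2 was highest and library 3 lowest with GFP-Mkrn3, while all 3 GFP IPs stood far below them. The values of these same libraries chose the 3 classes, and a call higher beyond GFP itself puts the GFP IPs lower. The medians therefore describe the classes and give no separate support for them.

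**Figure D2:**
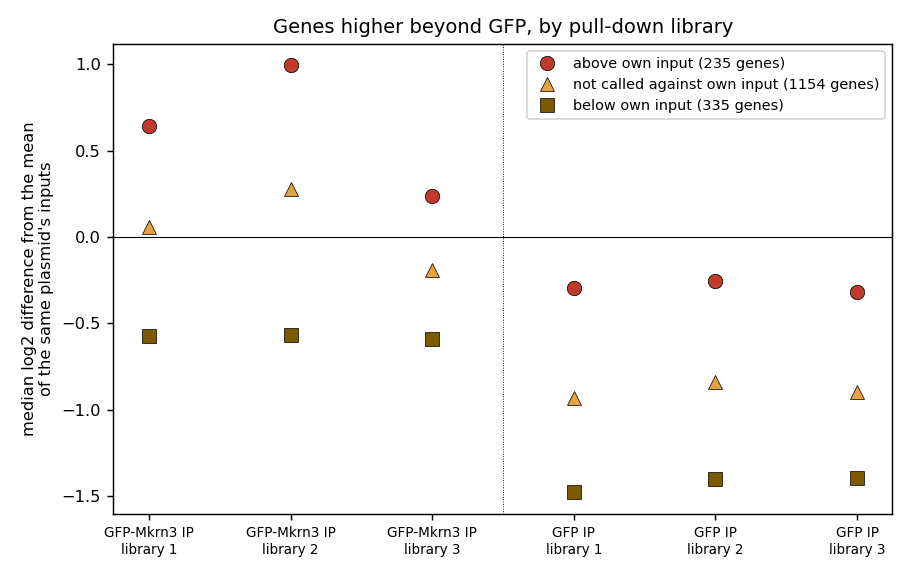
Median log2 difference of each IP library from the mean of the inputs of the same plasmid, for the 3 classes of genes higher beyond GFP. The values of these same libraries chose the classes. The brown squares are level across libraries of a plasmid, at −0.57 to −0.59 with GFP-Mkrn3 and −1.48 to −1.39 with GFP, whereas the red circles run from 0.23 in GFP-Mkrn3 IP library 3 to 1.00 in library 2.

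Genes above their own input came from several roles. Osgin1, an oxidative-stress gene on chromosome 8 (119425882 to 119446257, GRCm38), stood at 11.1, 15.8 and 6.52 CPM in GFP-Mkrn3 IP and 2.79, 2.5 and 2.65 CPM in its own input. In the GFP pull-down it stood at 2.31, 4.78 and 3.90 CPM, against 3.73, 6.36 and 7.61 CPM in GFP input. The 3 GFP-Mkrn3 IPs lay above every one of their inputs, while the GFP IPs and inputs overlapped. The change beyond GFP was 2.79 (SE 0.49, adjusted p = 0.000617) and that over its own input 2.08 (SE 0.34, adjusted p = 0.000274). The inputs also differed in level: those with GFP-Mkrn3 were all below those with GFP, a change of −1.17 that was not called (adjusted p = 0.71).

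Hmox1, which breaks down haem, is with Osgin1 a target of the antioxidant factor NRF2. It stood at 353, 471 and 274 CPM in GFP-Mkrn3 IP and 220, 215 and 230 CPM in its own input, against 218, 273 and 217 CPM in GFP IP and 279, 330 and 269 CPM in GFP input. The GFP-Mkrn3 IPs were all above their inputs and the GFP IPs overlapped theirs; the change beyond GFP was 1.03 (SE 0.20, adjusted p = 0.00133). Of 18 tested NRF2 targets 5 were higher and 2 lower beyond GFP (27.8 and 11.1%), beside 13.2 and 11.1% of all tested genes. Osgin1 and Hmox1 were above their own input, whereas Txn1, the redox protein thioredoxin, was below its own (−0.79) and further below with GFP (−2.19).

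AP-1 and early response genes, many of which encode transcription factors and have short-lived mRNAs, gave 10 higher and 0 lower of 35 tested. These are 28.6 and 0%, beside 13.2% and 11.1% of all tested genes. The list median was 0.47, beside 0.04 over all tested genes. Of the 10, Myc, Nr4a1, Csrnp1, Klf10, Junb, Klf2 and Ier5l were above their own input, and none was below it. Of these 7, only Myc and Junb kept both calls in all 12 fits without 1 library. Junb, a partner in the AP-1 factor, stood at 74.2, 96.6 and 54.6 CPM in GFP-Mkrn3 IP and 37.7, 36.3 and 40.7 CPM in its own input, against 45.5, 40.8 and 36.8 CPM in GFP IP and 55.4, 47.5 and 40.9 CPM in GFP input. Its GFP-Mkrn3 IPs did not overlap their inputs, and its GFP IPs did. Junb was 1.20 higher beyond GFP (SE 0.23, adjusted p = 0.00126) and 0.98 over its own input. Egr1, an early zinc-finger transcription factor, was higher beyond GFP by 0.90 but lost the call in 3 of 12 fits without 1 library. The list's median in the separate libraries was 0.36, 0.41 and 0.12 over own input, so library 3 was again the lowest.

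A joint list of ER stress and integrated stress response genes went in both directions, with 8 higher and 7 lower of 27 tested. These are 29.6 and 25.9%, beside 13.2 and 11.1% of all tested genes. Chac1, which degrades glutathione, Sesn2, Herpud1 and Atf4, the transcription factor of the integrated stress response, were higher beyond GFP and above their own input. Chac1 changed by 1.66 beyond GFP (SE 0.35, adjusted p = 0.0021) and 1.10 over its own input. Atf4 changed by 1.23 beyond GFP (adjusted p = 4.93e-05) and by 0.39 over its own input, a call lost without GFP-Mkrn3 IP 2 or input 2. The lower genes included the chaperones Hspa5 and Hsp90b1, the second by −0.86. Among 17 tested p53 targets, 6 were higher, of which Bbc3, Gtse1 and Sesn2 were above their own input, and 2 were lower (35.3 and 11.8%). The share of lower p53 targets was near that of all genes. Among 19 circadian genes, 4 were higher and 1 lower (21.1 and 5.26%), and Nr1d1, Noct and Npas2 were above their own input. The calls of Nr1d1 and Noct beyond GFP were each lost in 10 of 12 fits without 1 library.

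Among genes with a mean of 20 or more counts over the 12 libraries, the largest changes beyond GFP in the class above its own input belonged to genes whose GFP-Mkrn3 IP libraries differed widely. Rps29, a protein of the small ribosomal subunit, stood at 31.4, 61.0 and 16.9 CPM in GFP-Mkrn3 IP and 12.8, 13.6 and 24.4 CPM in its own input, against 4.24, 2.82 and 4.41 CPM in GFP IP and 20.1, 26.2 and 12.2 CPM in GFP input. The GFP IPs were far below every other group, whereas GFP-Mkrn3 IP library 3 lay within the range of its inputs. Rps29 changed by 3.48 beyond GFP (SE 0.56, adjusted p = 0.000356). Its change over its own input, 1.12 (adjusted p = 0.0228), was lost without GFP-Mkrn3 IP 2, input 1 or input 2. Sh3bp1 lost its change beyond GFP of 3.17 in 6 of 12 such fits. Bri3, Chchd10, Cxcl10, Ftl1, Praf2, Scand1 and Sh3bgrl3 had changes beyond GFP of 2.27 to 3.05, and each lost its call against its own input without GFP-Mkrn3 IP 1 and without IP 2. Of the 12 genes selected in this class, Rpl36, Mt2 and Osgin1 kept both calls in all 12 fits. Mt2, a metal-binding metallothionein, stood at 25.4, 46.0 and 12.9 CPM in GFP-Mkrn3 IP and 6.35, 8.44 and 14.1 CPM in its own input, against 3.98, 5.15 and 4.92 CPM in GFP IP and 11.9, 15.6 and 6.95 CPM in GFP input.

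Gnrh1, the precursor of GnRH, on chromosome 14 (67745181 to 67749440, GRCm38), was only less depleted than with GFP. It stood at 212, 196 and 219 CPM in GFP-Mkrn3 IP and 340, 302 and 315 CPM in its own input, against 92.1, 83.1 and 76.2 CPM in GFP IP and 338, 284 and 317 CPM in GFP input. The 4 groups fell into 3 levels without overlap: inputs of both plasmids high, GFP-Mkrn3 IP between, GFP IP lowest. Gnrh1 fell by 0.61 in GFP-Mkrn3 IP against its own input (SE 0.09, adjusted p = 0.000108) and fell by 1.90 in GFP IP against GFP input (SE 0.10, adjusted p = 4.21e-11). The difference, 1.29 (SE 0.13, adjusted p = 5.14e-06), kept its call in all 12 fits without 1 library.

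Of 13 tested genes of a list of the GnRH gene and its regulators, 5 were higher and 3 lower beyond GFP (38.5 and 23.1%, beside 13.2 and 11.1% of all tested genes). Cebpb was above its own input. Lhx2, a developmental factor of the forebrain, was higher by 1.19 (adjusted p = 0.00275) and not called against its own input, as were Egr1 and Six6. The homeobox factor Meis1 and the POU factor Pou2f1 were among the lower genes. Prohormone processing gave 1 higher gene of 12 tested, the vesicle protein Rab3a, and 3 lower, Prep, Cpd and the amidating enzyme Pam (8.33 and 25%). Rab3a lost its call in 2 of 12 fits without 1 library. Pam's change of −0.34 (adjusted p = 0.0396) was lost in 9 of 12 fits without 1 library, and Cpe and Pcsk2 were not called, at −0.22 and −0.30. Among makorins, Mkrn1 was lower by −0.51 (adjusted p = 0.0451), a call lost in 10 of the 12 fits, and Mkrn2 stood at 0.39 without a call.

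Of 8 tested genes whose proteins have been reported as Mkrn3 partners or substrates, 3 were higher and 1 lower beyond GFP (37.5 and 12.5%, beside 13.2 and 11.1% of all tested genes). Igf2bp2, an RNA-binding protein, was above its own input by 0.48, a call lost in 4 of 12 fits without 1 library, and higher beyond GFP by 1.08 (SE 0.21, adjusted p = 0.0011). Mbd3, a subunit of a chromatin repressor complex, was only less depleted (−0.48 with GFP-Mkrn3, −1.09 with GFP). The mRNA of the poly(A)-binding protein Pabpc1 stood at 683, 698 and 662 CPM in GFP-Mkrn3 IP and 644, 615 and 603 CPM in its own input, against 477, 489 and 487 CPM in GFP IP and 534, 617 and 612 CPM in GFP input. The GFP IPs were below every other library. Pabpc1 changed by 0.41 beyond GFP (SE 0.11, adjusted p = 0.00951), and its change over its own input, 0.13, was not called. Gigyf2, a translational repressor, was lower by −0.94 (adjusted p = 0.000264).

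Among gene lists with at least 10 tested members, those with the highest medians beyond GFP were the lists of ribosomes and of the respiratory chain, and most of their called members were not above their own input. Of 46 tested proteins of the large cytosolic subunit, 37 were higher and 0 lower (80.4 and 0%, beside 13.2 and 11.1% of all tested genes). Of the 37, 1 was above its own input (Rpl36), 22 not called and 14 below it. Of all tested genes, 1.80% were higher beyond GFP and above their own input, and 2.57% higher and below it. Of 34 small-subunit proteins, 26 were higher and 0 lower (76.5 and 0%). Of the 26, 1 was above its own input (Rps29), 13 not called and 12 below it. In GFP IP, 43 of the 46 and 33 of the 34 were below input, beside 25.2% of all tested genes. The median changes of the large subunit were −0.26 with GFP-Mkrn3 and −1.25 with GFP, and those of the small subunit −0.42 and −1.59.

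The levels of cytosolic ribosomal protein mRNAs showed the same order library by library. Together they took 0.997 to 1.12% of counts in GFP-Mkrn3 IP and 1.41 to 1.5% in its input, against 0.573 to 0.584% in GFP IP and 1.5 to 1.56% in GFP input. Rps12 stood at 149, 199 and 128 CPM in GFP-Mkrn3 IP and 208, 255 and 200 CPM in its own input, against 53.1, 44.4 and 42.6 CPM in GFP IP and 268, 252 and 257 CPM in GFP input. The GFP-Mkrn3 IPs lay between the GFP IPs and the inputs with no overlap. Its change beyond GFP was 1.99 (SE 0.19, adjusted p = 3.29e-06). Many ribosomal protein genes have processed pseudogenes of near-identical sequence, so the counts of single members are uncertain.

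Mitochondrial ribosomal proteins, which are made in the cytosol, gave 44 higher and 0 lower of 77 tested (57.1 and 0%, beside 13.2 and 11.1% of all tested genes). Of the 44, 1 was above its own input (Mrps18b), 40 not called and 3 below it. Nuclear-encoded respiratory chain genes gave 50 higher and 2 lower of 76 (65.8 and 2.63%). Of the 50, 2 were above their own input (Ndufs7 and Atp5g2), 20 not called and 28 below it. Uqcr10, a subunit of complex III, stood at 30.7, 34.5 and 27.1 CPM in GFP-Mkrn3 IP and 50.3, 53.7 and 52.1 CPM in its own input, against 6.17, 6.50 and 6.79 CPM in GFP IP and 56.5, 64.5 and 61.1 CPM in GFP input. Each pull-down lay below its own input with no overlap, and that with GFP by more. Uqcr10 changed by 2.48 beyond GFP (SE 0.18, adjusted p = 1.28e-07). The 2 lower members, Sdha and Ndufs1, encode large subunits of complexes II and I.

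Among other genes only less depleted, Atp5md, a small subunit of the ATP synthase, stood at 36.7, 39.5 and 53.9 CPM in GFP-Mkrn3 IP and 73.5, 82.3 and 68.2 CPM in its own input, against 3.47, 7.36 and 7.46 CPM in GFP IP and 63.7, 71.9 and 75 CPM in GFP input. Atp5md fell by 0.79 with GFP-Mkrn3 and fell by 3.54 with GFP, each below input in all 3 libraries. Tmsb10, which binds actin monomers, Uqcc2, an assembly factor of complex III, Tmem256 and Tomm7, part of the mitochondrial import pore, showed the same order, with changes beyond GFP of 2.43 to 2.71. Gnas, the stimulatory G protein subunit, and Bst2, an antiviral membrane protein, were in this class as well, at 0.93 and 1.41. Among genes with a mean of 20 or more counts, the largest changes in the class not called against its own input were those of Cox6a2, Plvap, Coa6, Cks2, Ccl17 and Smim29, from 2.66 to 3.43. In that class B2m, the light chain of MHC class I, stood at 272, 425 and 188 CPM in GFP-Mkrn3 IP and 211, 193 and 215 CPM in its own input, against 32.5, 54.3 and 54.5 CPM in GFP IP and 178, 231 and 200 CPM in GFP input. The GFP-Mkrn3 IPs spanned the level of their inputs, and the GFP IPs were far below theirs.

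**Figure D3:**
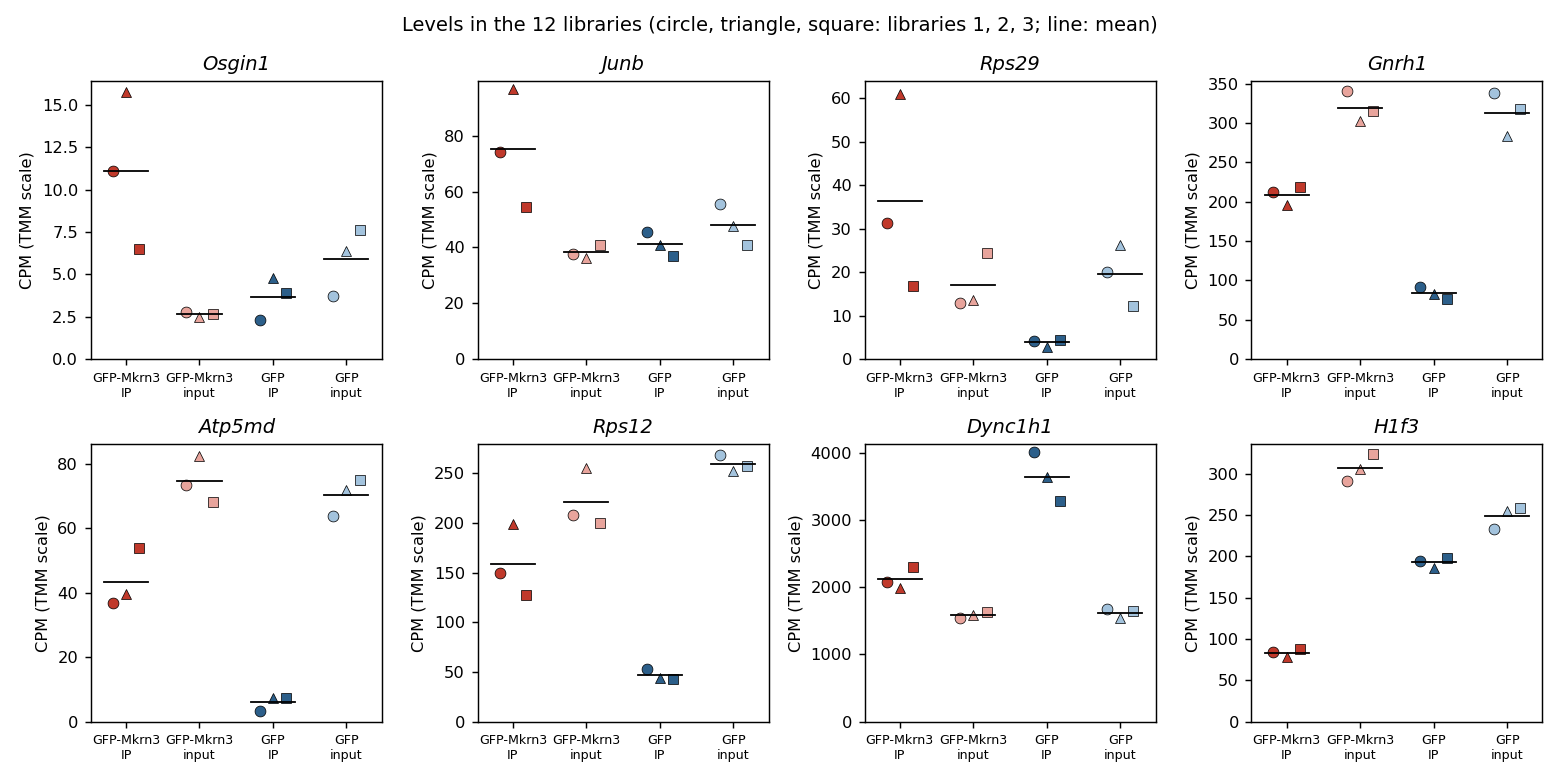
CPM of 8 genes in the 12 libraries, groups from left to right GFP-Mkrn3 IP, GFP-Mkrn3 input, GFP IP and GFP input, with symbols for libraries 1, 2 and 3 and a line at the mean. Osgin1 and Junb exceed their own input in all 3 GFP-Mkrn3 IPs, Gnrh1, Atp5md and Rps12 stand between input and GFP IP on average, Dync1h1 is highest in GFP IP, and H1f3 is lowest in GFP-Mkrn3 IP.

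Most genes on a list of very long mRNAs had lower enrichment beyond GFP. Of 37 tested genes on this list of cytoskeletal and scaffold proteins, 33 were lower and 0 higher, with a median of −0.62. These are 89.2 and 0%, beside 11.1 and 13.2% of all tested genes. Of the 33, 11 were above their own input, 18 not called and 4 below it. With GFP, 33 of the 37 were above input, beside 25.1% of all tested genes. Dync1h1, the heavy chain of cytoplasmic dynein, stood at 2078, 1990 and 2296 CPM in GFP-Mkrn3 IP and 1546, 1580 and 1626 CPM in its own input, against 4009, 3642 and 3279 CPM in GFP IP and 1676, 1548 and 1645 CPM in GFP input. Both pull-downs lay above their inputs, that with GFP by more, and the 2 pull-downs did not overlap. Dync1h1 changed by −0.75 beyond GFP (SE 0.12, adjusted p = 0.000334). Sptan1, a spectrin, changed by −0.98 and was not called against its own input. Given a mean of 20 or more counts, the 4 largest falls among genes above their own input were those of Eid3, Igf2r, the receptor that carries lysosomal enzymes, Dnmt1, the maintenance DNA methyltransferase, and the ATPase Vcp, from −0.82 to −1.79. Eid3 lost its call beyond GFP in 8 of 12 fits without 1 library, and Igf2r and Dnmt1 lost that against their own input in 7 and 5.

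Some lists had many more lower than higher members, beside 11.1% lower and 13.2% higher of all tested genes. Mitosis and kinetochore genes gave 19 lower and 3 higher of 39 (48.7 and 7.69%). Collagens and laminins gave 10 lower and 0 higher of 29 (34.5 and 0%). The hnRNP and SR splicing factors gave 12 lower and 2 higher of 38 (31.6 and 5.26%). Aminoacyl-tRNA synthetases, which charge tRNAs, gave 10 lower and 1 higher of 22 (45.5 and 4.55%). The mitotic genes included 11 below their own input, such as the centromere protein Cenpf (−0.55 with GFP-Mkrn3, 0.44 with GFP), while 6 of the 10 collagen and laminin genes were above theirs. Glycolysis gave 7 lower and 2 higher of 19 (36.8 and 10.5%) and heat shock chaperones 7 lower and 3 higher of 21 (33.3 and 14.3%), beside 11.1% lower and 13.2% higher of all tested genes, so the shares of higher members were near that of all genes. With library size alone as scaling the medians of both lists turned positive. Hsp90ab1, the constitutive HSP90, was lower by −0.95 (SE 0.12, adjusted p = 3.35e-05).

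**Figure D4:**
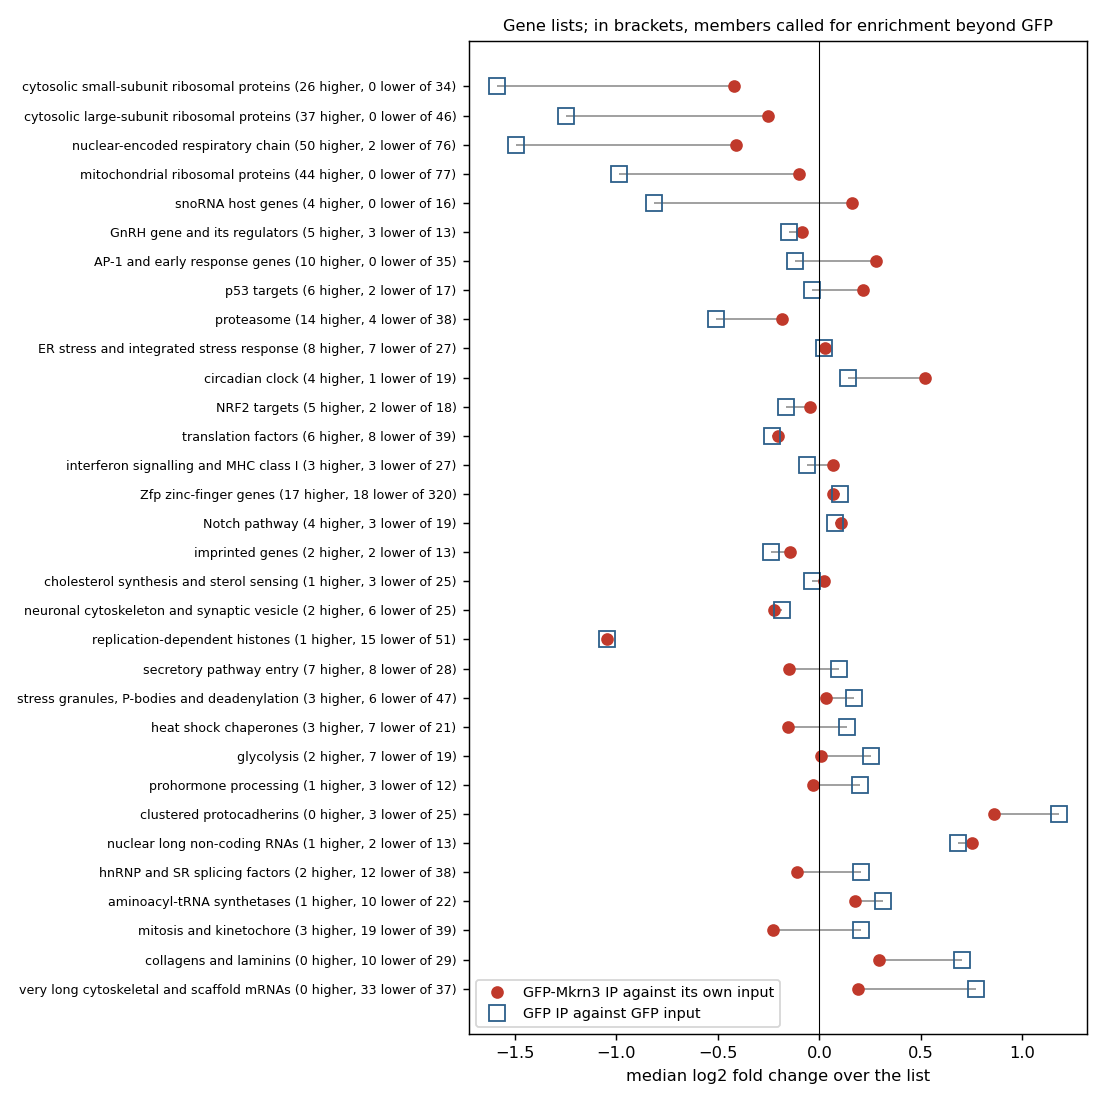
Median log2 change from input to IP for gene lists with at least 10 tested members, with GFP-Mkrn3 (red circles) and with GFP (blue squares), ordered by the median enrichment beyond GFP; brackets give the members called. Ribosomal and respiratory chain lists have circles left of 0 and squares further left, while very long mRNAs, collagens and protocadherins have both right of 0 with the square further right.

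Several RNAs were lower beyond GFP and below their own input. The linker histone H1f3 stood at 84.0, 78.3 and 88.4 CPM in GFP-Mkrn3 IP and 291, 306 and 324 CPM in its own input, against 194, 186 and 198 CPM in GFP IP and 233, 255 and 258 CPM in GFP input. All 4 groups were apart, with GFP-Mkrn3 IP lowest. H1f3 fell by 1.88 with GFP-Mkrn3 and fell by 0.37 with GFP, a change beyond GFP of −1.51 (SE 0.12, adjusted p = 1.76e-07). Replication-dependent histone mRNAs end in a stem-loop in place of a poly(A) tail. Of 51 tested genes on their list, 15 were lower and 1 higher (29.4 and 1.96%, beside 11.1 and 13.2% of all tested genes). The higher gene was H1f0, a variant whose mRNA is polyadenylated. All 15 were below their own input, and they were H1 and H4 genes. Histone genes have near-identical copies, so the counts of single H4 members are uncertain. The histone list's median over own input was −1.03, −0.32 and −1.64 in the 3 GFP-Mkrn3 IPs. With library size alone as scaling the list's median beyond GFP turned positive, at 0.10 from −0.10.

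Mitochondrial RNAs and the 7SK RNA were depleted with both plasmids. All 7 tested mitochondrial mRNAs were below input with GFP-Mkrn3 and with GFP, beside 12.8 and 25.2% of all tested genes. Of these mt-Nd6 and mt-Co1 were also lower beyond GFP, and mt-Co1 lost that call in 9 of 12 fits without 1 library. The mitochondrial ribosomal RNA mt-Rnr2 stood at 44.2, 54.6 and 44.0 CPM in GFP-Mkrn3 IP and 3172, 3323 and 6298 CPM in its own input, against 67.2, 122 and 201 CPM in GFP IP and 2976, 2672 and 2211 CPM in GFP input. mt-Rnr2 changed by −2.14 beyond GFP (SE 0.39, adjusted p = 0.000861). Rn7sk, the 7SK RNA that restrains transcription elongation, fell by 4.08 with GFP-Mkrn3 and fell by 3.0 with GFP. For mt-Nd6, mt-Rnr2 and Rn7sk both pull-downs were far below their inputs and that with GFP-Mkrn3 the further, whereas 5 of the 7 mitochondrial mRNAs were not called beyond GFP.

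Calls beyond GFP differed with the span of the gene in the genome, introns included, which the selection did not use. Spans in GRCm38 were known for 11994 of the 13052 tested genes (91.9%). The median span was 8.49 kb for genes higher beyond GFP, 49.7 kb for genes lower and 23.2 kb for all tested genes. The class above its own input had a median of 9.93 kb and the class only less depleted 7.11 kb. Among protein-coding genes in quartile 1, the shortest by span, 34.1% were higher and 3.28% lower beyond GFP. In quartile 4, the longest, 3.35% were higher and 22.8% lower. The median change with GFP ran from −0.48 in quartile 1 through −0.10 and 0.11 to 0.24 in quartile 4, while the median with GFP-Mkrn3 ran from −0.03 to 0.05. Span in the genome is not mRNA length, which was not used here, and whether it bears on the calls was not tested.

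**Figure D5:**
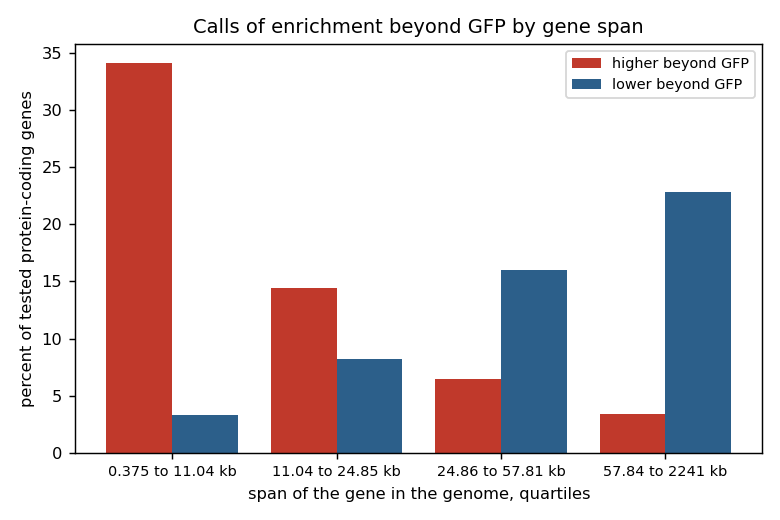
Percent of tested protein-coding genes called higher (red) and lower (blue) beyond GFP, by quartile of gene span in kb. The share called higher drops from 34.1 to 3.35% across the quartiles and the share called lower climbs from 3.28 to 22.8%.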

How the data were processed

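RIP libraries of GT1-7 cells were used. CEL-seq is named in the library names of the series' cytoplasm and total RNA samples, but not in those of the RIP libraries. Per the labels, tables of raw counts per gene were deposited by the authors; reads were handled with cutadapt, STAR and HTSeq on mm10, per the submitters' processing notes. The sources used here give no versions, annotation, strand setting or use of molecular identifiers, so overlapping and antisense genes may share reads. CEL-seq primes at poly(A), which would bear on RNAs without a tail. Whether the RIP libraries were primed in that way was not tested, and the 7SK RNA was counted in them. All 12 RIP libraries were fitted together with R 4.3.3 and edgeR 4.0.16 (filterByExpr on the groups, scaling by TMM, a mean per group, quasi-likelihood F test, two-sided, Benjamini-Hochberg over 13052 genes, call at an adjusted p under 0.05). The common biological coefficient of variation was 0.115. Classes combine the tests of enrichment beyond GFP and of IP against own input. Lists are described by counts and medians; per-library medians use log2(CPM + 0.5). Genes named are a set of makorin, GnRH, poly(A)-binding and prohormone genes, the 4 to 12 largest changes per class given a mean count of 20 or more, and up to 4 called members per list; other genes are named where a small count is spelled out, chosen after their values were seen. Some genes covered by these choices are not reported here. The members, lists and tests were chosen with earlier results of these data known. Spans came from a RefSeq table of GRCm38. Protein length was not used here, and cytoplasmic share was not used since too few genes had a value. The fit was also run on simulated counts. These were drawn independently for each gene and library, so that run cannot speak to shifts that many genes of a library share. Alternatives (DESeq2 1.42.0 among them) are given below. Figures used Python 3.11.15, pandas 2.3.3, numpy 2.4.6 and matplotlib 3.10.9. Intervals are not given. Each standard error was derived from the log2 change and its F statistic, whose dispersion draws on all genes and all 4 groups. It is therefore not the spread of a gene between its own libraries.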

Additional observations from a re-analysis of the deposited data

How the results depend on the processing

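With library size alone as scaling, 2845 genes were higher and 603 lower beyond GFP, 567 of the higher ones above their own input and 1849 not called against it; with no filter on low counts 389 were above their own input. Tested against a 1.5-fold change, 340 were higher and 32 lower beyond GFP, 267 above and 111 below input with GFP-Mkrn3, and the higher genes split into 1 above, 331 not called and 8 below their own input. Without 1 library at a time the counts ran from 1323 to 2295 higher and 988 to 2064 lower beyond GFP, 1195 to 2371 above and 1190 to 2205 below own input, 64 to 788 in the class above own input, 874 to 1179 in that not called and 218 to 383 in that below. Of these fits, that without GFP-Mkrn3 input 2 gave the lowest count of all genes above own input, 1195. The causes were not tested. Other scalings, the mean filter, the DESeq2 test and, chosen after seeing the data, fits without the Mkrn3 row or without mitochondrial and histone rows moved no such count by over 1.5 times. Deviations of same-numbered libraries correlated from −0.146 to 0.238, and those of different-numbered libraries from −0.247 to 0.140. With 3 libraries per group, such values cannot show whether equal numbers mark a shared lysate, which the labels do not state. With a replicate block across groups 249 genes were above and 339 below their own input among those higher beyond GFP; with the block within plasmid the counts were 146 and 294. Depth limits low genes: Pcsk1 and Qpct held 0 or 1 count per library and were not tested, and Nptx1 held 1 to 15.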

Other observations

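Some RNAs stood above input with both plasmids. Of 487 tested rows of the annotation type TEC (transcripts still to be experimentally tested), 321 were above input with GFP-Mkrn3 and 370 with GFP, at median changes of 2.27 and 2.51. Of all tested genes, 13.9 and 25.1% were above input. A row could pass the filter on low counts through its IP libraries alone, which can raise these counts and medians. Beyond GFP, 1 TEC row was higher and 11 lower, beside 13.2 and 11.1% of all tested genes. Clustered protocadherins, neuronal adhesion molecules, gave 10 above input with GFP-Mkrn3 and 16 with GFP of 25 tested, beside 13.9 and 25.1% of all tested genes. The limit of the filter holds for them as well. Beyond GFP, 0 were higher and 3 lower (0 and 12%, the second near the 11.1% of all tested genes). Of the 3, Pcdhga7 and Pcdhb22 lost that call in 8 and 9 of 12 fits without 1 library. Xist, the RNA that coats the inactive X chromosome, took 0.0373, 0.0268 and 0.0446% of counts in GFP-Mkrn3 IP and 0.00702, 0.00650 and 0.00561% in its input, against 0.0358, 0.0346 and 0.0458% in GFP IP and 0.00689, 0.00549 and 0.00481% in GFP input. Malat1, a nuclear RNA, took 0.609, 0.358 and 0.721% in GFP-Mkrn3 IP and 0.528, 0.519 and 0.485% in its input, against 0.823, 0.668 and 0.910% in GFP IP and 0.651, 0.543 and 0.541% in GFP input. For Malat1, GFP-Mkrn3 IP library 2 lay below its inputs and the other 2 above them.

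Of 320 tested Zfp zinc-finger genes, 17 were higher and 18 lower beyond GFP (5.31 and 5.62%), beside 13.2% and 11.1% of all tested genes. Zfp523, Zfp511 and Zfp574 were above their own input. Of 38 tested proteasome genes 14 were higher and 4 lower (36.8 and 10.5%, the second near that of all genes). Psmb6 and Psmb1, subunits of the catalytic core, were higher by 0.92 and 0.77, and Psmd2, a scaffold of the regulatory particle, was lower by −0.71. Translation factors gave 6 higher and 8 lower of 39 (15.4 and 20.5%, the first near that of all genes), among them Eif1, which guides start-codon choice, higher by 1.31, and Eif3a, the largest subunit of its complex, lower by −0.99.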
